A study of Mus musculus with 4 samples.

Results

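The genes described here are 32 mouse genes whose products make, desaturate, elongate or activate long-chain fatty acids, or regulate these steps. They were chosen by role and found by symbol among the 33456 genes of the deposited count matrices, 3 of them (Hacd1, Hacd2 and Hacd3) under an older symbol matched by its Ensembl identifier. They fall into 8 steps: supply of acetyl-CoA and NADPH, synthesis of malonyl-CoA and palmitate, mitochondrial synthesis, desaturation, condensation by elongases, the remaining reactions of the elongation cycle, activation to acyl-CoA, and transcriptional regulation.

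Fatty acids are built in the cytosol from acetyl-CoA that leaves mitochondria as citrate, with NADPH as the reductant, and fatty acid synthase releases mainly palmitate. Enzymes of the endoplasmic reticulum then lengthen the chain and insert double bonds, and SREBP-1, encoded by Srebf1, raises transcription of many genes of the pathway. Myelin membranes hold much very-long-chain lipid, and satellite glial cells (SGC) are the glia that wrap the cell bodies of sensory neurons in dorsal root ganglia (DRG).

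Single cells were profiled by 3′ tag sequencing in DRG of C57BL/6 mice aged 8 to 12 weeks, all female by the study's methods. There were 2 libraries from uninjured mice (control) and 2 libraries taken 3 days after a crush of the sciatic nerve (injury). The labels place the tissue at L4 and the methods at L4 and L5. Values per library are given in the order control 1, control 2, injury 1, injury 2. The matrices held 5585909, 11210875, 11163177 and 9477167 unique molecular identifiers (UMIs) over 1384, 1788, 2509 and 1294 barcodes, and 20 barcode sequences were shared between libraries, summed over the pairs of libraries.

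Of 6975 barcodes, 6095 passed the limits on UMIs, genes and mitochondrial share, and 4368 were assigned to 1 of 16 cell types by counting detected markers, none of which is a gene of the pathway set. SGC were the most numerous type with 1149 cells (53, 407, 452 and 237), followed by 988 macrophages, 586 fibroblasts and 434 endothelial cells. There were 236 myelinating Schwann cells, 155 nonmyelinating glia and 53 neurons. Only sums with at least 10 cells were used, so nonmyelinating glia rested on control 1 and injury 1, and neurons and the cells with Cldn1 and Krt19 rested on control 2 and injury 2. T cells and B cells had enough cells in 1 library each and were not tested. The summed SGC markers stood at 12051 to 18224 CPM (UMIs of a gene per 1000000 UMIs of a cell type in a library) in SGC, at 1133 and 1659 CPM in nonmyelinating glia, at 443 and 527 CPM in neurons, and at 65.8 to 161 CPM in Schwann cells. The part of these markers of SGC in levels seen in the other types was not tested.

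SGC had the highest level of 10 of the 32 genes: Acss2, Me1, Fasn, Scd1, Scd2, Fads2, Elovl2, Elovl5, Hsd17b12 and Tecr. Neurons led 7 genes (Acly, Acaca, Elovl4, Hacd3, Acsl3, Acsl4 and Acsl6), of which 4 were too low to test. Myelinating Schwann cells led Slc25a1, Elovl1 and Elovl6, smooth muscle led Hacd1 and, on 2 and 5 UMIs, Acacb and Mcat, and endothelial cells led Elovl7 and Thrsp. Of the others, nonmyelinating glia led Fads1 and Srebf1, neutrophils led Hacd2 and Acsl1, pericytes led Fads3, dendritic cells led Acsl5, and the cells with Cldn1 and Krt19 led Oxsm. No gene of the set was highest in macrophages, fibroblasts, monocytes or erythroid cells.

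**Figure D1:**
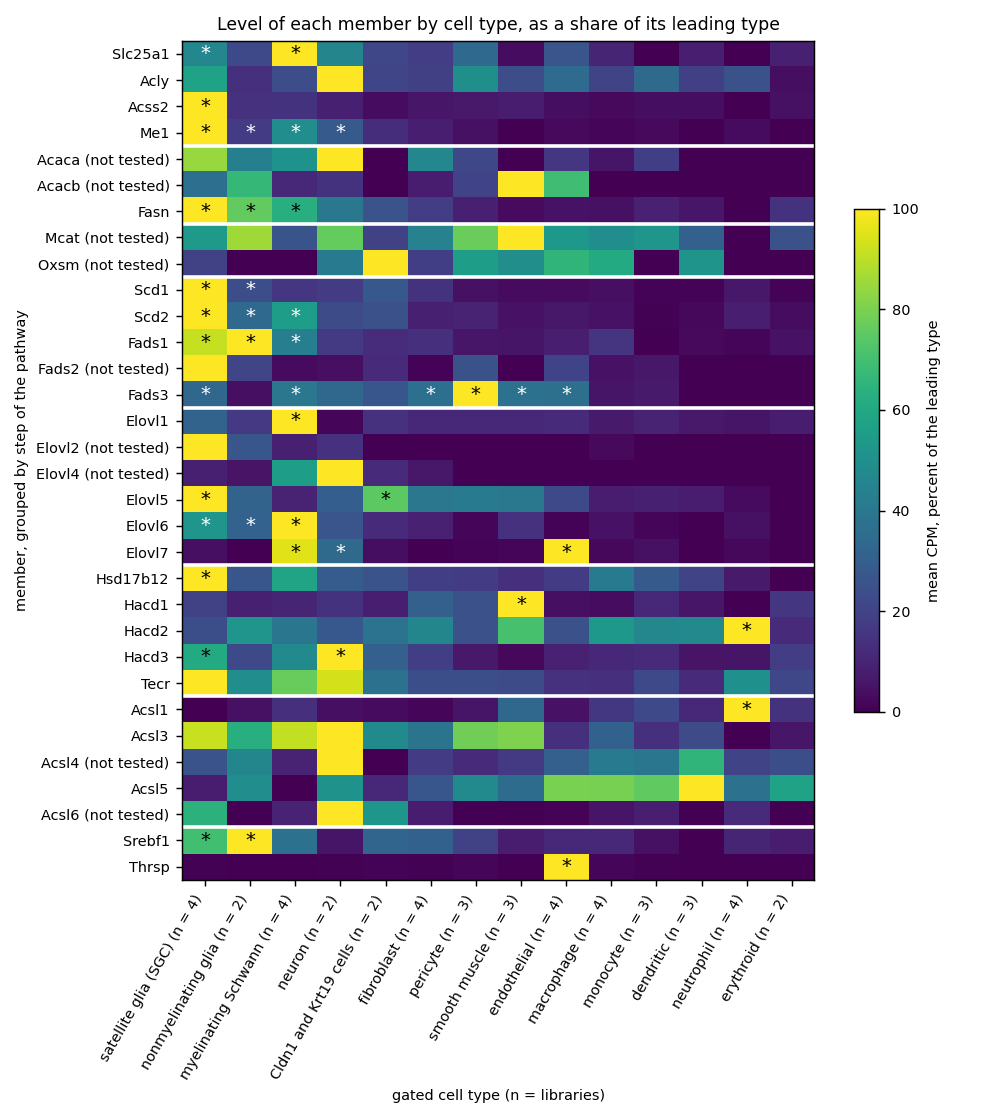
Mean level of each gene (rows, grouped by step) in 14 cell types (columns), as a percent of the gene's own leading type. An asterisk marks a type in which the gene was called enriched, and most asterisks stand in the SGC, nonmyelinating glia and Schwann columns.

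In the edgeR quasi-likelihood test of each type against the mean of the other 13, 6402 genes passed the filter on low counts, 23 of the 32 among them. The 9 that did not pass had 44 to 302 UMIs in all assigned cells and are described by level only. A gene was called enriched at a log2 fold of 2 or more and an adjusted p under 0.05, and 19 of the 23 met this in at least 1 type, beside 55.7% of all genes tested. In SGC 13 of the 23 were enriched, where 12.1% of all genes were. Their median log2 fold in SGC was 2.17 over the 23 and 0.26 over all genes. In myelinating Schwann cells 9 were enriched (10.1% of all genes), with a median log2 fold of 1.61 beside 0.08, and in nonmyelinating glia 7 (9.34% of all genes). The count was 3 in endothelial cells (11.8%) and 3 in neurons (11.8%), 2 in neutrophils (9.14%) and 2 in smooth muscle (10.2%). It was 1 each in fibroblasts (12.7%), pericytes (12%) and the cells with Cldn1 and Krt19 (8.54%). None was enriched in macrophages (11.4%), monocytes (9.42%), dendritic cells (9.53%) or erythroid cells (6.31%) by edgeR. A gene can pass the filter through the type in which it is high, so these counts describe the 23 and not the whole set. Of the 23, 15 had at least 1 type with 0 UMIs, where a fitted fold depends on the prior count. Sizes of these genes below are therefore mostly given as levels and as folds between named types.

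Among all 91 pairs of types, 869 of 2093 tests of these genes (41.5%) passed an adjusted p of 0.05, beside 32.8% for all genes. The leading type differed from the type ranked next for 14 of the 23 genes, beside 29.7% of all genes, and for the other 9 the test did not pass the threshold.

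In the supply of acetyl-CoA and NADPH, each of the 4 genes had its own pattern. Acss2, the cytosolic enzyme that makes acetyl-CoA from acetate, stood at 162, 161, 128 and 134 CPM in SGC (146 ± 18.0, SD, n = 4). In Schwann cells, the type ranked next, it stood at 19.6, 31.1, 10.2 and 24.7 CPM, so every SGC value lay above every Schwann value. Without the upper limits on UMIs and genes, Acss2 in neurons was 17.4, 25.9, 23.8 and 27.2 CPM in the 4 libraries, within the Schwann range. The fitted log2 fold of SGC over Schwann cells was 2.92 ± 0.36 (SE, edgeR adjusted p = 1.13e-08). Me1, the malic enzyme that yields cytosolic NADPH, was 323, 405, 363 and 413 CPM in SGC and 166, 137, 245 and 189 CPM in Schwann cells, a log2 fold of 1.12 ± 0.23 (adjusted p = 0.00018). Me1 was also enriched in neurons, with 124 and 87.9 CPM, and in nonmyelinating glia, with 45.3 and 88.5 CPM. It was near 0 in macrophages, where a UMI of Me1 was seen in 2.02% of cells against 74.8% of SGC, and at 1000 UMIs per cell in 0.425% against 30.7%, with median depths of 4092.5 and 4263 UMIs.

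Slc25a1, the carrier that exports citrate from mitochondria, led in Schwann cells with 44.0, 80.8, 66.5 and 90.4 CPM. SGC held 19.4, 43.1, 34.5 and 33.3 CPM, below every Schwann value, and Schwann cells exceeded SGC by a log2 fold of 0.92 ± 0.32 (edgeR adjusted p = 0.0253). Acly, which splits citrate into acetyl-CoA and oxaloacetate, was enriched in no type. Its levels were 205 and 128 CPM in neurons and 95.8 ± 24.5 CPM (SD, n = 4) in SGC. The pair tests of neurons against SGC, pericytes and neutrophils did not pass the threshold. Without the upper limits on UMIs and genes, which remove many neurons, Acly in neurons was 263, 237, 236 and 174 CPM in the 4 libraries. Slc25a1 in neurons was then 48.0, 70.2, 59.6 and 49.9 CPM, between the lowest and highest Schwann values above.

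Fasn, the synthase that builds palmitate, had its 3 highest levels in the glial types. It was 58.2, 99.5, 82.9 and 69.6 CPM in SGC, 60.4 and 57.5 CPM in nonmyelinating glia and 73.3, 24.9, 30.7 and 65.8 CPM in Schwann cells. The 3 glial types overlapped, and neither the log2 fold of SGC over Schwann cells, 0.88 ± 0.39 (edgeR adjusted p = 0.0826), nor that over nonmyelinating glia, 0.65 ± 0.54 (adjusted p = 0.403), passed the threshold. SGC exceeded each of the 11 other types in the pair tests. Without the upper limits on UMIs and genes, which remove many neurons, Fasn in neurons was 43.9, 35.4, 63.6 and 36.0 CPM in the 4 libraries. These values lay within the Schwann range, so the gap between neurons and Schwann cells in Fasn depended on these limits. Acaca, the carboxylase that makes malonyl-CoA for synthesis, was too low to test, with 27.7 ± 5.98 CPM in neurons (SD, n = 2) and 23.4 ± 5.82 CPM in SGC (n = 4). Acacb, its mitochondrial form, held 44 UMIs over all assigned cells. Smooth muscle was at 11.4 ± 14.3 CPM (SD, n = 3) from 2 UMIs and endothelial cells at 7.89 ± 2.37 CPM (n = 4) from 17, and smooth muscle led in only 3 of 11 alternatives.

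The genes of mitochondrial fatty acid synthesis were low in every type. Mcat, the malonyl transferase, was 25.3 ± 25.9 CPM in smooth muscle (SD, n = 3) from 5 UMIs, 21.7 ± 12.0 CPM in nonmyelinating glia (n = 2) and 13.6 ± 4.79 CPM in SGC (n = 4). Oxsm, the mitochondrial condensing enzyme, was at most 9.75 ± 13.8 CPM (n = 2, cells with Cldn1 and Krt19), a mean made of 0 and 2 UMIs. Neither gene passed the filter.

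Of the 5 desaturases, 3 had their highest level in SGC. Scd1, a stearoyl-CoA desaturase that puts the first double bond into saturated chains, stood at 498, 661, 614 and 662 CPM in SGC. Its next levels were 131 and 205 CPM in the cells with Cldn1 and Krt19 and 106 and 186 CPM in nonmyelinating glia, all under the lowest SGC value, and SGC exceeded the first of these by a log2 fold of 2.35 ± 0.37 (edgeR adjusted p = 1.78e-06). Scd2, a second gene with this activity, was 801, 1570, 1194 and 1478 CPM in SGC, 513, 994, 604 and 707 CPM in Schwann cells and 272 and 593 CPM in nonmyelinating glia. SGC and Schwann libraries overlapped in Scd2 with control 2 high in Schwann cells and control 1 low in SGC, and within each library SGC were higher, with a log2 fold of 0.93 ± 0.27 (adjusted p = 0.00565). At 1000 UMIs per cell, a UMI of Scd1 was found in 43.0% of SGC, 8.64% of Schwann cells and 1.33% of macrophages, and a UMI of Scd2 in 67.3%, 40.2% and 3.12%. Without thinning the shares were 82.1%, 21.2% and 5.57% for Scd1 and 93.9%, 63.1% and 11.3% for Scd2.

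The balance of the pair of stearoyl-CoA desaturases differed between types. Scd1 made up 29.6% to 38.3% of the Scd1 and Scd2 UMIs in the 4 SGC libraries and 8.57% to 16.9% in the 4 Schwann libraries, without overlap. Shares were taken only in libraries with at least 20 UMIs of the pair, which left out smooth muscle, monocytes, dendritic cells, neutrophils and erythroid cells. Among the types kept, the share of Scd1 was highest in fibroblasts, at 42.4% to 49.1%, which overlapped neither SGC nor Schwann cells. These shares compare 1 gene pair between types, and no test of the difference in share was made.

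Fads1, which desaturates polyunsaturated chains, was 151 and 239 CPM in nonmyelinating glia, 142, 196, 174 and 199 CPM in SGC and 78.2, 80.8, 92.1 and 82.2 CPM in Schwann cells. Nonmyelinating glia and SGC overlapped, with a log2 fold of SGC over nonmyelinating glia of -0.05 ± 0.25 (edgeR adjusted p = 0.937), and SGC exceeded Schwann cells by 1.22 ± 0.21 (adjusted p = 1.06e-05). Fads2, its partner in polyunsaturated synthesis, was not tested. It held 271 of its 302 UMIs in SGC, at 12.9, 49.2, 56.3 and 51.0 CPM, and 10.5 ± 14.3 CPM in pericytes (SD, n = 3). Fads3, a desaturase of sphingoid bases, departed from the others and led in pericytes with 79.4, 174 and 76.0 CPM in control 1, control 2 and injury 1. It was enriched in 6 types and lay at 36.4 to 43.6 CPM on average in SGC, fibroblasts, endothelial cells, smooth muscle and Schwann cells. Pericytes exceeded Schwann cells by a log2 fold of 1.23 ± 0.37 (adjusted p = 0.00892). The SGC markers in pericytes were 28.0, 1152 and 301 CPM in these libraries, highest in the library with the highest Fads3, and their part in the level was not tested.

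**Figure D2:**
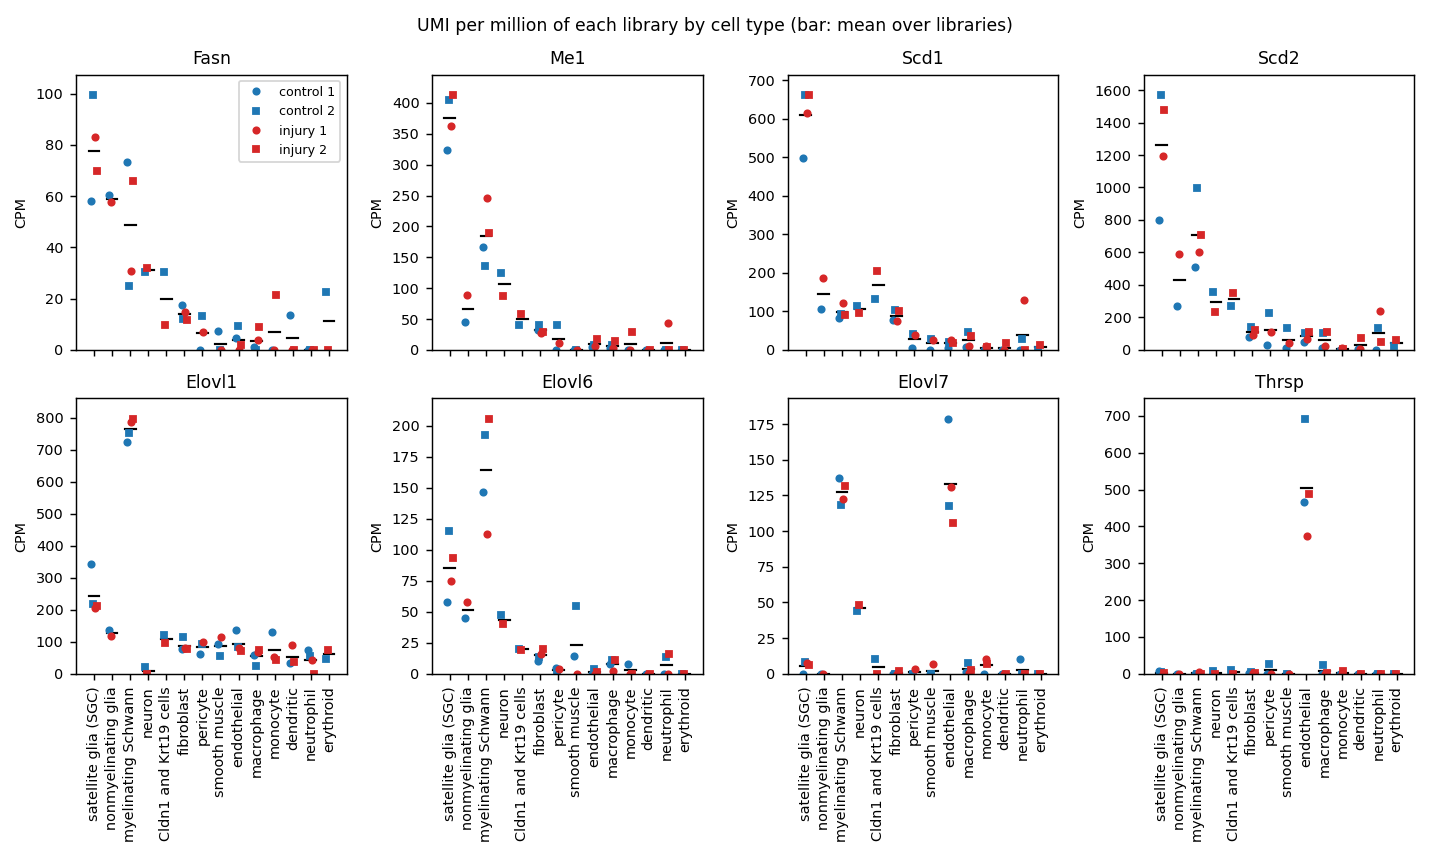
Level in CPM of 8 genes in each library (points; control blue, injury red) and their mean (bars) over 14 cell types, on linear axes from 0. Scd1 stood at 498 to 662 CPM in SGC, Elovl1 at 724 to 797 CPM in Schwann cells and Thrsp at 375 to 692 CPM in endothelial cells.

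The 6 elongases, which carry out the condensation that sets chain length, divided among cell types. Elovl1, which elongates saturated and monounsaturated chains toward very long lengths, was 724, 752, 788 and 797 CPM in Schwann cells and 342, 217, 207 and 211 CPM in SGC. The Schwann values varied little and lay far above the SGC values, with a log2 fold of Schwann cells over SGC of 1.58 ± 0.20 (edgeR adjusted p = 9.64e-09). Elovl1 was detected in every type, and neurons held the least, with 6 UMIs (20.2 CPM) in control 2 and 0 in injury 2. Neurons were lower than each of the 13 other types, by log2 folds from 2.26 ± 0.75 (dendritic cells, adjusted p = 0.0161) to 5.82 ± 0.46 (Schwann cells, adjusted p = 6.03e-14). Without the upper limits on UMIs and genes, which remove many neurons, Elovl1 in neurons was 23.5, 30.8, 19.9 and 18.96 CPM in the 4 libraries.

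Elovl6, which extends palmitate to stearate, led in Schwann cells as well, at 147, 193, 113 and 205 CPM, with 58.2, 115, 74.9 and 93.6 CPM in SGC and 45.3 and 57.5 CPM in nonmyelinating glia. The Schwann and SGC ranges overlapped slightly, and the log2 fold was 0.73 ± 0.23 (edgeR adjusted p = 0.0127). Elovl7, another elongase of saturated chains, was shared by endothelial cells, with 179, 117, 131 and 105 CPM, and Schwann cells, with 137, 118, 123 and 131 CPM. These overlapped, with a log2 fold of 0.01 ± 0.27 (adjusted p = 1), and neurons followed with 43.7 and 48.0 CPM. Without the upper limits on UMIs and genes, Elovl7 in neurons was 122, 86.9, 137 and 71.4 CPM in the 4 libraries, of which control 1 and injury 1 lay within the endothelial range and the other 2 below it. Elovl7 was 5.80 CPM or less on average in the other types, SGC included, at a log2 fold of 3.91 ± 0.31 under endothelial cells (adjusted p = 2.23e-13).

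Elovl5, an elongase of polyunsaturated chains, had the opposite preference among glia. It was 239, 295, 228 and 299 CPM in SGC, 232 and 166 CPM in the cells with Cldn1 and Krt19, 75.6 and 92.9 CPM in nonmyelinating glia and 29.3, 31.1, 30.7 and 16.4 CPM in Schwann cells. SGC exceeded Schwann cells by a log2 fold of 3.35 ± 0.29 (edgeR adjusted p = 9.31e-13). Elovl2, the other elongase of polyunsaturated chains, was not tested, but 157 of its 164 UMIs were in SGC, at 25.8, 39.6, 23.9 and 23.2 CPM, and 9 types had none. Elovl4, which makes the longest chains, held 60 UMIs and was highest in neurons, at 50.4 and 31.97 CPM, followed by Schwann cells at 22.9 ± 28.2 CPM (SD, n = 4).

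**Figure D3:**
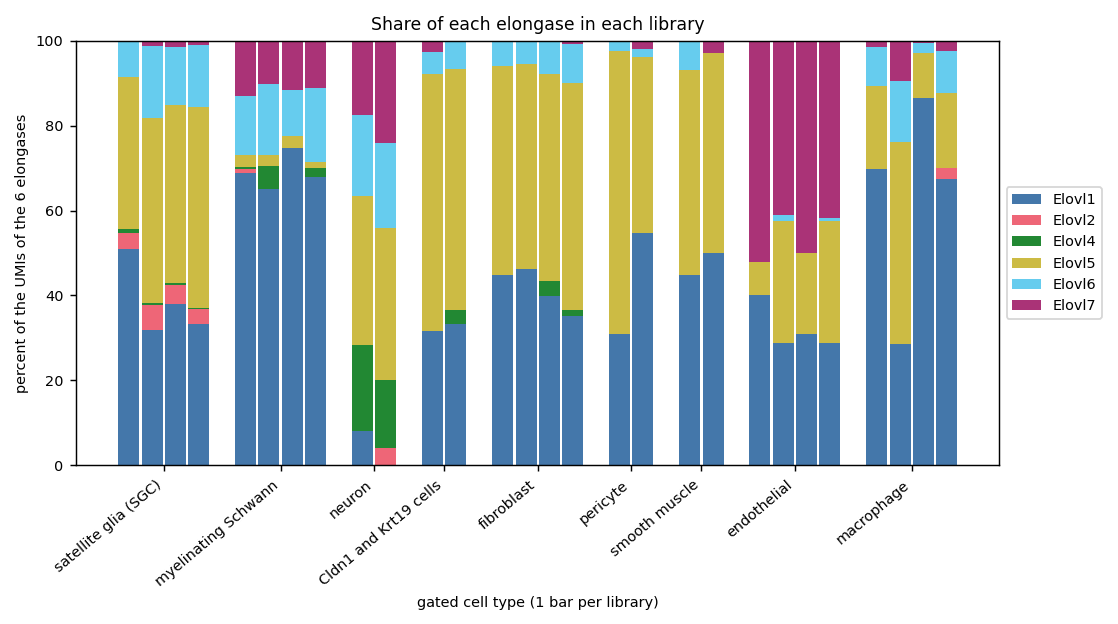
Percent of the UMIs of the 6 elongases that each elongase takes, 1 bar per library with at least 20 such UMIs, for cell types with at least 2 such libraries. Elovl1 takes 65.1% to 74.8% in Schwann cells, Elovl5 takes 35.6% to 47.1% in SGC and 1.40% to 2.91% in Schwann cells, and Elovl7 takes 41.2% to 52.0% in endothelial cells.

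As shares of all elongase UMIs of a library, the ranges of SGC, Schwann cells and endothelial cells did not overlap for Elovl7, and no test of the shares was made. Elovl5 took 35.6% to 47.1% in SGC and 1.40% to 2.91% in Schwann cells, and Elovl7 took at most 1.37% in SGC, 10.2% to 13.0% in Schwann cells and 41.2% to 52.0% in endothelial cells. In the 2 neuron libraries Elovl1 took 8.11% and 0%, and Elovl4 took 20.3% and 16%. In macrophages Elovl1 ranged from 28.6% to 86.5%, the widest range of any type. The lowest value was 6 of only 21 elongase UMIs in control 2, and the other libraries ran from 67.5% to 86.5%.

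The remaining enzymes of the elongation cycle were spread more widely. Hsd17b12, the ketoacyl-CoA reductase, was 252, 327, 286 and 370 CPM in SGC and 142, 155, 169 and 255 CPM in Schwann cells, ranges that met only at injury 2 in Schwann cells. The log2 fold was 0.97 ± 0.21 (edgeR adjusted p = 0.000251), and macrophages came next with 126 ± 16.5 CPM (SD, n = 4). Tecr, the enoyl-CoA reductase of the last reaction, was at 131 CPM or more on average in every type and enriched in none, with 1101 ± 84.0 CPM in SGC (n = 4), 1030 ± 111 CPM in neurons (n = 2) and 845 ± 77.4 CPM in Schwann cells (n = 4). SGC and neurons overlapped in Tecr, with a log2 fold of 0.31 ± 0.24 (adjusted p = 0.342).

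The 3 dehydratases each had another leading type. Hacd1 was a smooth muscle gene with 174, 192 and 173 CPM in control 1, control 2 and injury 1, against 48.6, 52.0, 58.4 and 61.7 CPM in fibroblasts, a log2 fold of 1.54 ± 0.33 (edgeR adjusted p = 0.000286). Hacd2 was highest in neutrophils, at 127, 109, 86.3 and 96.0 CPM from 30 UMIs, and its enrichment there (log2 fold 2.02 ± 0.35) lay at the threshold. Hacd3 was 84.0 and 112 CPM in neurons, 51.7, 70.0, 48.9 and 69.6 CPM in SGC and 47.0 ± 15.4 CPM in Schwann cells (SD, n = 4). Neurons did not differ from SGC in Hacd3, with a log2 fold of 0.17 ± 0.39 (adjusted p = 0.808), and without the upper limits on UMIs and genes Hacd3 in neurons was 52.1, 83.3, 29.8 and 75.8 CPM.

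The 5 long-chain acyl-CoA synthetases activate free fatty acids. Acsl1 was 243, 123, 108 and 176 CPM in neutrophils and 54.8 ± 49.3 CPM in smooth muscle (SD, n = 3), and neutrophils exceeded smooth muscle by a log2 fold of 2.66 ± 0.60 (edgeR adjusted p = 0.000449). SGC held 2 UMIs of Acsl1 in all. Acsl5 was 82.7, 82.2 and 90.7 CPM in dendritic cells (control 1, injury 1, injury 2), 68.2 ± 12.4 CPM in endothelial cells and 67.8 ± 10.0 CPM in macrophages (n = 4 each). These did not differ in the pair tests, and Acsl5 was 5.41 to 8.50 CPM in SGC. In Schwann cells it had 0 of 682698 UMIs, which allows up to 4.39 CPM. Acsl3 differed little between types, with 51.9 ± 16.9 CPM in neurons (n = 2), 47.6 ± 11.5 CPM in SGC and 47.2 ± 14.5 CPM in Schwann cells, and was enriched in none. The fitted log2 fold of neurons over SGC, -0.40 ± 0.49 (adjusted p = 0.596), had the opposite sign to the difference in CPM, and neurons led in 6 of 11 alternatives, with SGC, Schwann cells or smooth muscle first in the others. Acsl4 and Acsl6 were not tested. Acsl4 was 20.15 and 31.97 CPM in neurons and 17.0 ± 16.5 CPM in dendritic cells (n = 3). Acsl6, a synthetase of nervous tissue, was 40.3 and 15.98 CPM in neurons and 18.0 ± 5.37 CPM in SGC, which led in the injury libraries alone.

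Of the regulators, Srebf1 was 121 and 124 CPM in nonmyelinating glia and 110, 63.4, 97.8 and 71.1 CPM in SGC. Nonmyelinating glia lay above all SGC libraries, but the fitted log2 fold of SGC over them was -0.18 ± 0.36 (edgeR adjusted p = 0.771), and SGC exceeded Schwann cells (39.1, 62.1, 40.9 and 41.1 CPM) by 1.03 ± 0.32 (adjusted p = 0.01). Thrsp, a small nuclear protein tied to lipogenesis in liver, was at 467, 692, 375 and 487 CPM in endothelial cells and at 8.93 CPM or less on average in all 13 other types. A UMI of Thrsp was found in 75.3% of endothelial cells and 0.609% of SGC, with median depths of 4374.5 and 4263 UMIs. Endothelial cells exceeded pericytes, the next type, by a log2 fold of 6.93 ± 0.59 (adjusted p = 1.17e-11). Fasn, by contrast, was seen in 2.30% of endothelial cells and 31.3% of SGC.

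Because several genes led by SGC are known targets of SREBP, promoter windows (250 bases before to 50 after a start) were read from RefSeq sequences of build GRCm38.p6, which hold 28 of the 32 genes in 38 windows. Mcat, Scd1, Scd2 and Fads1 have no entry. A sterol element core, TCACNCCAC on either strand, was found in 1 of the 38 windows (Acsl1), beside 1.24% of all 32851 windows. Only exact matches to these letters were counted, with any base at N, so sites that differ from this core were not seen. The CCAAT box, the letters CCAAT on either strand and the site of the factor NF-Y, was found in 21 of the 38 (55.3%), beside 37.4% of all windows. No test was made, and a match is not a bound site. A box within 100 bases before the start was not particular to genes led by SGC. Elovl1, Thrsp, Acsl1, Acacb, Acsl3, Srebf1 and Fads3, led by other types, held such a box as well. The windows of the 4 genes led by SGC that hold a box within 100 bases before the start are printed as 100 bases each, 5′ to 3′ on the gene's strand, with the boxes in capitals (ATTGG is the box on the other strand, and the pair in Fasn printed as 1 run overlaps). They are Fasn at chr11:120824548-120824647 (minus strand), Acss2 at chr2:155517940-155518039 (plus strand), Elovl5 at chr9:77917265-77917364 (plus strand) and Tecr at chr8:83594492-83594591 (minus strand).
Fasn: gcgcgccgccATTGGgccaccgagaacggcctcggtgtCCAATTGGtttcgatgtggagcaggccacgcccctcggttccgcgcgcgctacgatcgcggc
Acss2: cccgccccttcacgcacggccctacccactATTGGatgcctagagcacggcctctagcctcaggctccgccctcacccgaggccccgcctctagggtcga
Elovl5: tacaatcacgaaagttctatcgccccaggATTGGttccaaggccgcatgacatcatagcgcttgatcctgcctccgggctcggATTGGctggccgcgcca
Tecr: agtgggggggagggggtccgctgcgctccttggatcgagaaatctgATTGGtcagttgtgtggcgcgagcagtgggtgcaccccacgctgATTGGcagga

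Between SGC and myelinating Schwann cells, 11 of the 23 genes were higher in SGC and 5 higher in Schwann cells at an edgeR adjusted p under 0.05, beside 16.8% and 10.1% of all genes. Those higher in SGC were Acly, Acss2, Me1, Scd1, Scd2, Fads1, Elovl5, Hsd17b12, Tecr, Acsl5 and Srebf1. Those higher in Schwann cells were Slc25a1, Elovl1, Elovl6, Elovl7 and Acsl1, so 3 of the 5 were elongases of saturated chains. Between SGC and nonmyelinating glia, 11 were higher in SGC (8.7% of all genes) and 1, Acsl5, higher in nonmyelinating glia (5.87%). Schwann cells exceeded nonmyelinating glia in 7 (7.29%) and were lower in 4 (8.17%), namely Fads1, Elovl5, Acsl5 and Srebf1.

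**Figure D4:**
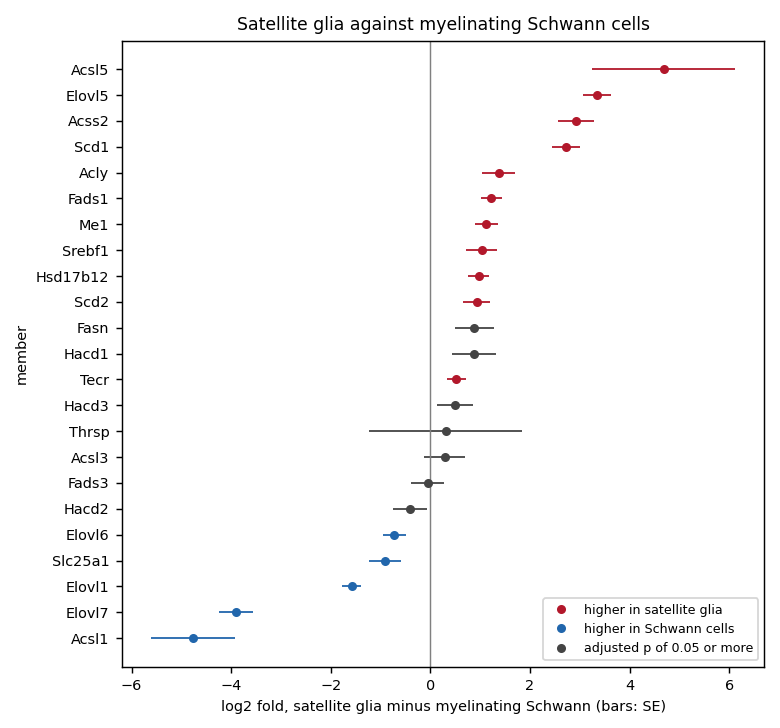
Fitted log2 fold of SGC over myelinating Schwann cells for the 23 genes tested (points, with SE as bars), coloured by the pair test. Elovl5 (3.35), Acss2 (2.92) and Scd1 (2.72) lie on the SGC side and Elovl7 (-3.90) and Elovl1 (-1.58) on the Schwann side; Acsl5 had 0 UMIs in Schwann cells and Acsl1 had 2 in SGC, so their folds depend on the prior count.

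Of 34 other genes of fatty acid metabolism, 33 were in the matrices and 18 passed the filter. Of the 18, 13 were enriched in at least 1 type (55.7% of all genes) and 6 in SGC (12.1% of all genes). The 10 with the largest folds were led by Acsbg1, an acyl-CoA synthetase of brain glia, at 420, 714, 505 and 660 CPM in SGC (log2 fold over the other types 7.44 ± 0.23, edgeR adjusted p = 1.11e-25). Also in SGC were Slc27a1, a fatty acid transporter (4.72 ± 0.23), Acot1, a cytosolic thioesterase (4.63 ± 0.22), Aacs, which makes acetoacetyl-CoA for lipid synthesis (3.15 ± 0.30), and Insig1, which retains SREBP in the endoplasmic reticulum (3.01 ± 0.18). Elsewhere the list held Acot7 in neurons (4.77 ± 0.26), Nr1h3, the receptor LXR alpha, in fibroblasts (4.40 ± 0.45) and Hacd4, a further dehydratase, in macrophages (3.88 ± 0.25). The last of the 10 were Slc27a4 (3.42 ± 0.52) and G6pdx, a source of NADPH (3.17 ± 0.51), both in neutrophils. All 10 folds are over the mean of the other types and depend on the prior count where a type has 0 UMIs.

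After injury, no gene of the set passed the threshold of a log2 fold change of 2 with an adjusted p under 0.05. The 6 types with 10 cells in every library were tested with edgeR, for 27 genes of the set in SGC, 17 in fibroblasts, 16 in macrophages, 13 in endothelial cells, 12 in Schwann cells and 2 in neutrophils. None was called in any of them, also with DESeq2. An unadjusted edgeR p under 0.05 was reached in 1 of the 87 tests, in macrophages. In macrophages 7.79% of all genes did so, and in the other types 0.146% to 3.17%. Of all genes, 0.0621% were called in fibroblasts (4 of 6444) and 0% in SGC, macrophages, endothelial cells, Schwann cells and neutrophils. The groups of 2 libraries did not overlap in 25 of the 87 tests, a share no higher than the 30.4% over all genes tested. In SGC the fitted changes ran from -0.59 to 0.42 with a median SE of 0.32.

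The largest change was Acsl1 in macrophages, at 49.1 and 22.9 CPM in control and 15.98 and 16.39 CPM after injury, a log2 fold change of -1.42 ± 0.43 (adjusted p = 0.546 by edgeR). Without control 1 this was -0.54. In SGC the largest was Elovl2, at 25.8 and 39.6 CPM in control and 23.9 and 23.2 CPM after injury (-0.59 ± 0.33, adjusted p = 0.99981), which was 0.049 without control 2. In fibroblasts it was Acsl3, at 17.7 and 34.7 CPM against 10.9 and 16.7 CPM (-0.86 ± 0.49). In Schwann cells Hacd3 was at 24.4 and 49.7 CPM against 56.3 and 57.5 CPM (0.61 ± 0.67), and in endothelial cells Scd1 was at 4.58 and 19.9 CPM against 26.2 and 19.002 CPM (0.59 ± 0.62). In neutrophils Acsl1 was at 243 and 123 CPM against 108 and 176 CPM (-0.46 ± 0.68), and 0.14 without control 1. The median SE over the genes of the set was 0.32 to 0.58 in the 6 types, and changes within such errors were not detectable. Larger changes could be missed as well. Acsl1 in macrophages, at -1.42 ± 0.43, did not pass the adjusted p with 2 libraries per condition.

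In 1 joint fit of the 6 types, the change after injury was compared between each of the 15 pairs of types for 25 genes of the set. None of the 375 differences passed an adjusted p of 0.05 by edgeR, beside 0.00244% of all tests. An unadjusted p under 0.05 was seen in 8, a count not set against that of all genes.

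**Figure D5:**
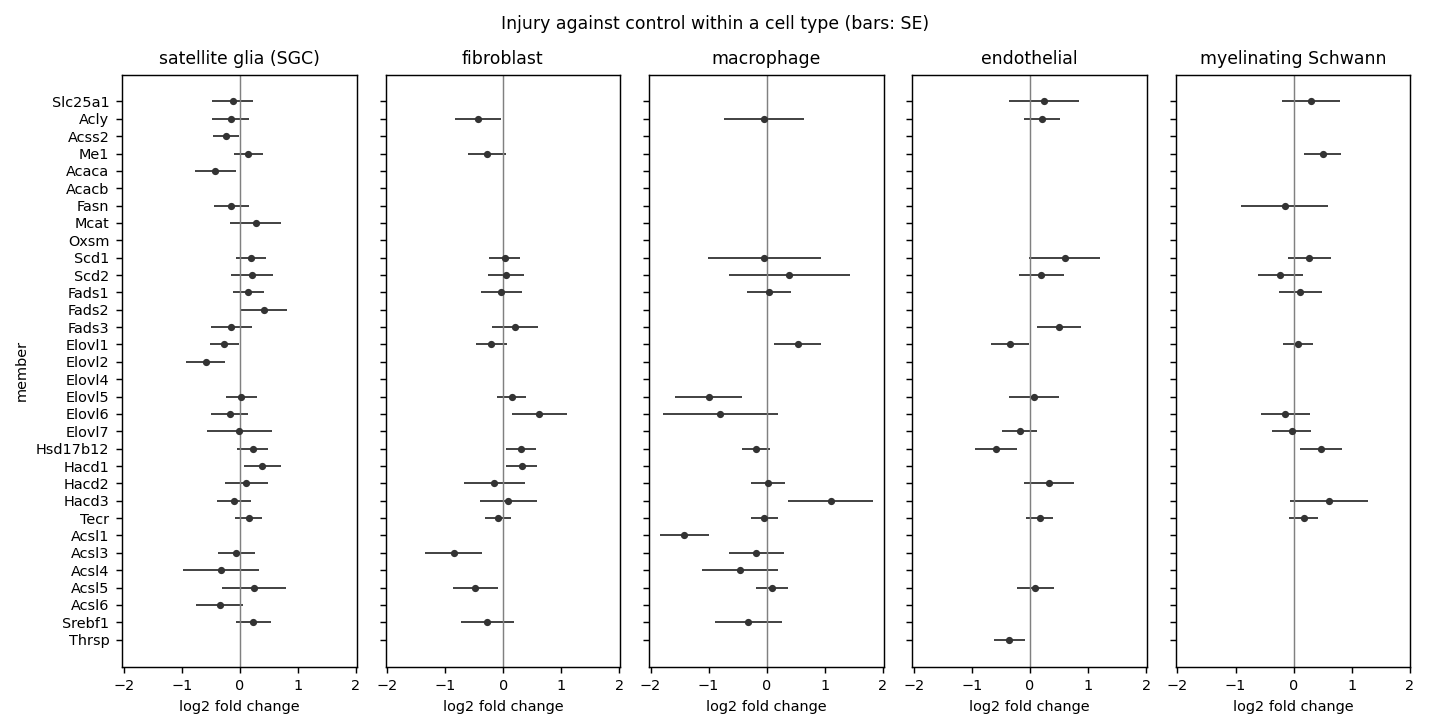
Fitted log2 fold change of injury over control (points, with SE as bars) for each gene tested, in 5 cell types. The SGC points lie between -0.59 and 0.42, and the point farthest from 0 is Acsl1 in macrophages (-1.42).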

How the data were processed

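Libraries were 10x 3′ single-cell RNA-seq. The submitters' processing notes name Cell Ranger, Partek and the build mm10. The deposited matrices hold raw UMI counts per gene and barcode, which the authors had not normalised. The genes and lists were chosen with earlier results of these data known.

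From the deposited counts, barcodes with 600 to 15000 UMIs, 500 to 4000 genes and under 10% mitochondrial UMIs were kept. The study's methods give these limits for reads per cell, genes and mitochondrial reads, and the first was applied here to UMIs. Fewer cells passed than the study states, and the cause was not tested. A cell was assigned to the type of which it showed the most markers (lists of 8, or 10 for fibroblasts), with at least 3 markers and a lead of 2 over any other list. No doublet caller was run; 1727 cells with too few markers or too small a lead were left unassigned. Counts were summed per library and type (at least 10 cells) and tested in edgeR 4.0.16 (R 4.3.3; TMM, filterByExpr, quasi-likelihood, library as a block for types) with Benjamini-Hochberg adjustment over all genes, and for pairs over all genes and pairs. The fold changes are thus on the TMM scale and differ from ratios of CPM: the median log2 fold of all genes ran from -1.01 in erythroid cells to 0.26 in SGC. DESeq2 1.42.0, other normalisation, filters, gates and left-out libraries were alternatives. Each test was also run on simulated data with large planted changes. These runs do not measure power for smaller changes, and for the joint fit they planted changes only in genes with many UMIs. Named genes were all 32, the 10 other pathway genes with the largest enrichment, and per type the gene with the largest change after injury. Libraries are the replicates: the study describes independent experiments, and the labels name no animals. The study states that each batch pooled cells of several mice, so a library is not 1 animal. For comparisons of types, with library as a block, p-values measure only the spread left after differences between libraries are removed. For injury they measure only the spread between libraries within a condition. The SDs given for a type pool control and injury libraries. Limits for 0 counts (3 UMIs over the type's total, from 0.566 CPM in SGC to 14.9 CPM in the cells with Cldn1 and Krt19) cover counting error only. Coordinates are from RefSeq GRCm38.p6.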

Additional observations from a re-analysis of the deposited data

How the results depend on the processing

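The number of genes enriched in at least 1 type was 19 and ranged from 18 to 26 over the alternatives, and was 18 to 23 when 1 library was left out. In SGC it was 13 and ranged from 10 (a looser gate, chosen after seeing the data) to 18 (no filter on low counts, or a log2 fold of 1). In Schwann cells it was 9, and 15 at a log2 fold of 1. The share of pair tests passed was 41.5%, 30.2% to 34.5% without 1 library, where fewer samples remain, and up to 44.5% otherwise. The enrichment of Hacd2 in neutrophils fell under the threshold in 7 alternatives (for example a log2 fold of 1.40 without TMM), that of Srebf1 in nonmyelinating glia in 2 and that of Hacd3 in neurons in 1, and the other 292 values kept their call. Of the 32 leading types, 20 were the same in all 11 alternatives and 12 were not (Acaca, Acacb, Mcat, Oxsm, Fads1, Elovl7, Tecr, Acsl3, Acsl4, Acsl5, Acsl6 and Srebf1), with Acacb (3 of 11) and Acsl3 (6 of 11) kept least often. No gene of the set was called after injury in any of the alternatives run. Without 1 library, the change of Acsl1 in neutrophils ran from -0.85 to 0.14 (without control replicate 1) and that of Elovl2 in SGC from -0.74 to 0.049 (without control replicate 2). The labels number only 1 library per condition and do not say whether a number marks a shared experiment. The differences between the replicates of control and of injury correlated across genes at 0.21 (SGC) to 0.52 (neutrophils) in all 6 types, and nonmyelinating glia numbered 43, 3, 103 and 6 cells, so a pairing by number is possible but cannot be settled with 2 pairs. With a replicate block 0 genes of the set were called, and over the 6 types 85 genes of all, against 4 without the block and 24 with DESeq2. Few cells limit neutrophils (63), nonmyelinating glia and neurons.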
